A study of Mus musculus with 16 samples.

Results

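The B cell receptor complex and the proteins that carry its signal were followed through 30 genes, chosen by name for their place in the pathway: 5 of the receptor and its membrane partners, 7 kinases and kinase subunits, 10 adaptors, exchange factors and effector enzymes, 4 inhibitors and 4 downstream regulators. All 30 were measured among the 22733 genes tested. The study compared splenic B cells of 3'RR-deficient mice with those of wild-type mice on 16 single-colour Agilent arrays; the 3'RR is the enhancer cluster downstream of the immunoglobulin heavy chain constant genes. Each of 2 slides held 4 deficient and 4 wild-type arrays, slide 1 with deficient numbers 9, 10, 11 and 12 and wild-type numbers 2, 5, 6 and 8, and slide 2 with deficient numbers 1 to 4 and wild-type numbers 1, 2, 3 and 5.

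The deficient mice carried a knock-out of the IgH allele of 129 origin on a BALBC background and have BALBC as their strain entry, while the wild-type mice have 129 as theirs, so genotype and strain cannot be told apart in any comparison. No treatment is given for either genotype, and the cells were taken from the spleen with beads against B220, an isoform of the protein of Ptprc, which is one of the genes followed. No age or sex is given. Beads select on 1 antigen, so other B220-bearing cells can be present, and in RNA of a whole preparation fewer cells of a type and less RNA per cell cannot be told apart. The series text speaks of 4 mice of each genotype against 8 arrays of each, and the labels do not tie arrays to mice, so the p-values below rest on a spread between samples that could be technical. The deletion itself was not checked here.

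The B cell receptor is a membrane immunoglobulin paired with the signalling chains CD79A and CD79B. Binding of antigen lets Src-family kinases such as LYN and BLK phosphorylate these chains, SYK docks on them and phosphorylates the adaptor BLNK, and BLNK brings BTK, VAV proteins and phospholipase C gamma 2 together, which opens calcium, protein kinase C beta, Ras and phosphoinositide 3-kinase branches. Inhibitory receptors such as CD22 and CD72 recruit the phosphatase SHP-1, and SHIP-1 removes the lipid that phosphoinositide 3-kinase makes. In resting spleen cells this pathway sets the threshold for activation and supplies a survival signal.

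The 75th percentile of the processed signal, to which each array was scaled, lay between 662 and 851 on the deficient arrays and 576 and 768 on the wild-type arrays of slide 1, and between 910 and 990 and between 596 and 948 on those of slide 2. No spot was saturated, and the number of arrays limits the precision. Measured genes that mark B cells (Ms4a1, Pax5, Ebf1, Pou2af1 and Cd74, n = 5) were well above background on all 16 arrays, and their summed level, in multiples of the array's 75th percentile, was 753 to 856 in deficient and 741 to 911 in wild-type cells of slide 1, and 722 to 733 in deficient and 625 to 729 in wild-type cells of slide 2. Markers of other cells were present too: the 14 measured macrophage and monocyte markers summed to 328 to 420 in deficient and 208 to 314 in wild-type cells of slide 1, and to 186 to 211 in deficient and 132 to 191 in wild-type cells of slide 2. The 14 T cell markers summed to 41.5 to 47.2 in deficient and 41.7 to 48.2 in wild-type cells of slide 1, and to 20.7 to 22.3 in deficient and 14.9 to 18.6 in wild-type cells of slide 2. Of the macrophage and monocyte markers 2 (Ly6c1 and Lyz1) were called higher and none lower over both slides, with a list median of 0.18 on the log2 scale, and of the T cell markers 2 were called higher and 2 lower. Of all genes 7.64% were called higher and 9.95% lower. Ly6c1, which lymphocytes and endothelium also express, made up much of the first sum, with means of 7.47 in deficient and 6.37 in wild-type cells of slide 1 and of 7.33 and 6.89 on slide 2. Without it, a choice made after its values were seen, the other 13 markers summed to 161 to 247 in deficient and 122 to 243 in wild-type cells of slide 1, and to 41.6 to 43.4 in deficient and 32.4 to 42.1 in wild-type cells of slide 2, and the genotypes overlapped on both. The 7 measured erythroid markers summed to 63.1 to 218 in deficient and 56.3 to 347 in wild-type cells of slide 1, and to 7.1 to 13.8 in deficient and 2.41 to 3.19 in wild-type cells of slide 2, where 3 were called higher, as were 4.33% of all genes. Among them the globin genes Hba-a1 and Hbb-b1 had differences of 4.93 and 6.13 on slide 2 (adjusted p = 9.9e-05 and 1.7e-05) and of -0.47 and -0.74 on slide 1. The part of red cell RNA in the results on slide 2 was not tested. The 8 plasmacytoid dendritic markers summed to 482 to 506 in deficient and 528 to 603 in wild-type cells of slide 1. Their sums on slide 2 were 371 to 403 and 362 to 482. The 9 neutrophil markers summed to 9.64 to 147 in deficient and 3.84 to 35.8 in wild-type cells of slide 1. On slide 2 these sums were 4.21 to 5.04 and 3.34 to 5.96. The part of these cells was not tested either. The macrophage markers C1qa and C1qc and the T cell marker Cd3g were well above background on 8 of the 16 arrays each, all of them on slide 1, while Csf1r, Cd68 and Cd3e were above it on all 16.

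All values below are log2 signals minus the array's 75th percentile, and a difference is deficient minus wild type on that log2 scale. Differences were tested with limma over all 22733 genes at an adjusted p of 0.05. Over both slides, the mean of the 2 within-slide differences put 7 of the 30 genes past this threshold. Cd22, Nfatc2, Bank1 and Syk were higher in deficient cells, and Rasgrp3, Cd81 and Dapp1 were lower. The 4 higher genes are 13.3% of the 30, where 7.64% of all genes tested were called higher, and the 3 lower genes are 10% of the 30, where 9.95% of all genes were called lower, so the lower share is that of the array as a whole. The median difference of the 30 genes was -0.05, against -0.03 over all genes, and 17 of the 30 (56.7%) had a difference below 0, against 56.1% of all genes. By role, 1 of the 5 receptor genes, 1 of the 7 kinases, 3 of the 10 adaptors and effectors, 1 of the 4 inhibitors and 1 of the 4 downstream genes were called.

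**Figure D1:**
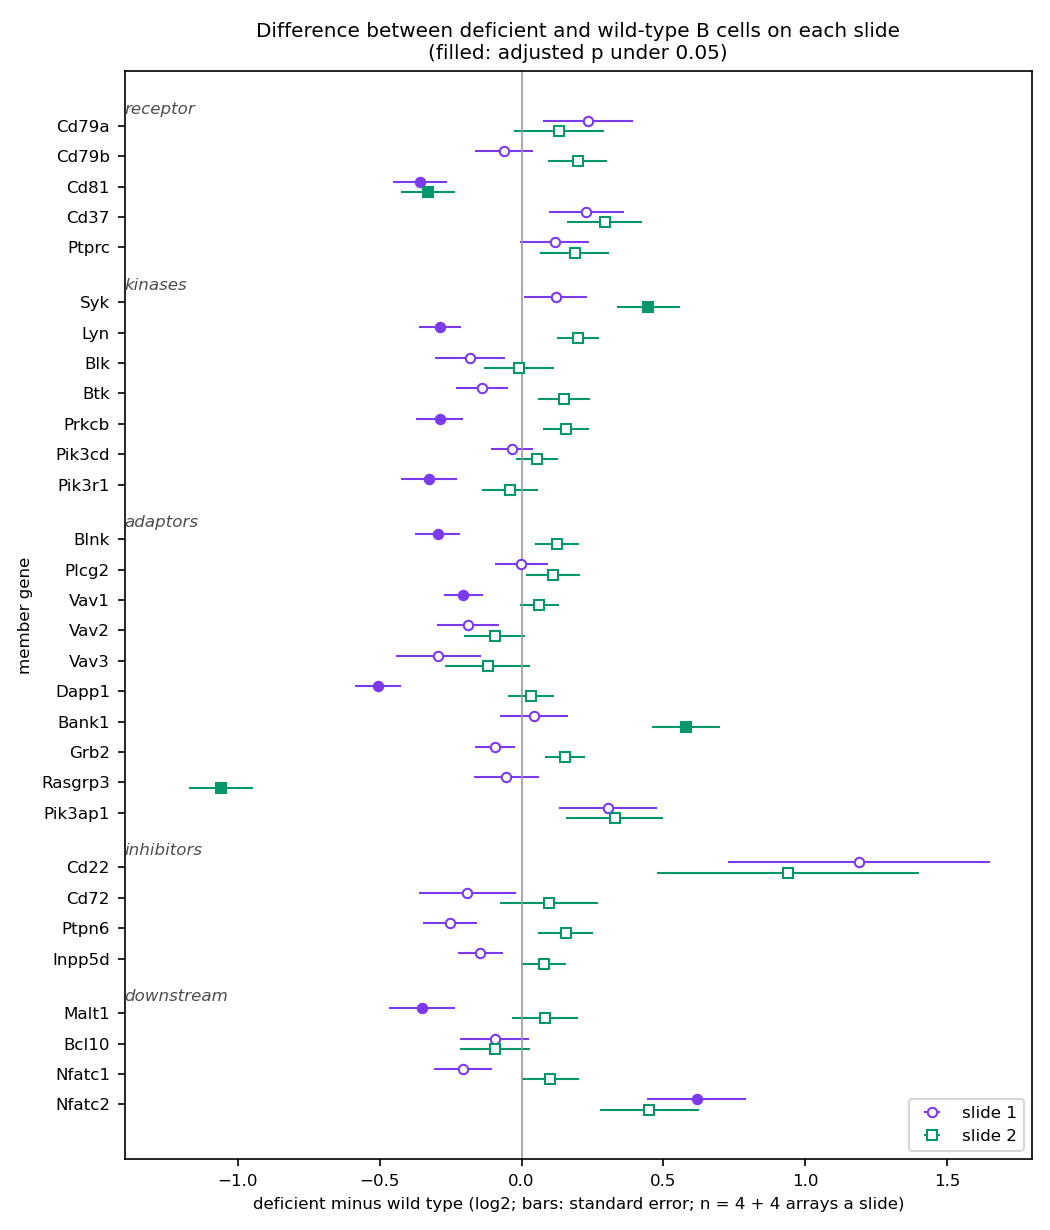
Deficient minus wild-type difference (x axis, log2) of each of the 30 genes (y axis, by role) on slide 1 (circles) and slide 2 (squares), with the standard error of the fit as bars and filled symbols where the adjusted p was under 0.05 (4 deficient and 4 wild-type arrays a slide). Rasgrp3 on slide 2 stands at -1.06, and Cd22 at 1.19 and 0.94 with the widest bars.

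The receptor's own signalling chains were not called different. Cd79a had 7.42, 7.51, 7.45 and 7.67 in deficient cells of slide 1, against 6.76, 7.23, 7.49 and 7.63 in wild-type cells, and 6.04, 5.83, 5.77 and 6.00 in deficient cells of slide 2, against 5.62, 5.70, 5.73 and 6.06 in wild-type cells. The groups overlapped on both slides, and the difference over both slides was 0.18 ± 0.11 (SE; 95% interval -0.06 to 0.42; adjusted p = 0.295). Cd79b had 8.70, 8.80, 8.66 and 8.89 in deficient cells of slide 1, against 8.55, 8.90, 8.84 and 9.01 in wild-type cells, and 8.35, 8.36, 8.14 and 8.29 in deficient cells of slide 2, against 7.97, 8.06, 8.05 and 8.28 in wild-type cells. These groups overlapped as well, and its difference was 0.07 ± 0.07 (95% interval -0.09 to 0.22; adjusted p = 0.572). The probe used for Cd79a is placed by the array's design file at chromosome 12, 53180558 to 53180617 of mm9, although the gene lies on chromosome 7; its other probe, placed at chromosome 7, 25684357 to 25684614, gave a like difference of 0.20 ± 0.12.

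Among the receptor's membrane partners Cd81 fell on both slides. CD81 is a tetraspanin that organises receptors in the B cell membrane. Its values were 5.63, 5.87, 5.71 and 5.65 in deficient cells of slide 1, against 6.04, 5.93, 6.11 and 6.22 in wild-type cells, and 6.24, 6.28, 6.39 and 6.01 in deficient cells of slide 2, against 6.54, 6.49, 6.49 and 6.72 in wild-type cells. Every deficient array lay below every wild-type array of its slide. The difference was -0.34 ± 0.07 over both slides (adjusted p = 0.00346), -0.36 ± 0.10 on slide 1 (adjusted p = 0.0157) and -0.33 ± 0.10 on slide 2 (adjusted p = 0.0477), that is, a level 1.27-fold higher in wild type over both slides. The call over both slides held under each of the 26 alternatives run, with adjusted p between 0.00153 and 0.024. The call on slide 2 alone was lost in 12 of the 16 fits without 1 array. The probe lies at chromosome 7, 150253737 to 150253796 of mm9; whether this or any other probe falls in a coding exon or a UTR was not analysed here.

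The other partners had values above 0 that did not pass the test over both slides. Cd37, a tetraspanin of mature B cells, had a difference of 0.26 ± 0.09 (95% interval 0.06 to 0.46; adjusted p = 0.0729), and its second probe gave 0.28 ± 0.09 (adjusted p over probes 0.0425). Probes were fitted one by one for this, 32874 in all, of which 7.58% were called higher and 9.21% lower. Ptprc, whose product CD45 removes the inhibitory phosphate from Src-family kinases, had 0.15 ± 0.09 (adjusted p = 0.251).

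Of the 7 kinases and kinase subunits, Syk was higher in deficient cells over both slides and none was lower. SYK is the kinase that docks on the phosphorylated receptor chains. Its transcript had 6.35, 6.42, 6.49 and 6.44 in deficient cells of slide 1, against 6.35, 6.41, 6.20 and 6.25 in wild-type cells, and 4.48, 4.35, 4.43 and 4.92 in deficient cells of slide 2, against 4.03, 4.10, 3.99 and 4.27 in wild-type cells. The genotypes overlapped on slide 1 and stood apart on slide 2, where every deficient array was higher. The difference was 0.28 ± 0.08 over both slides (1.22-fold, adjusted p = 0.0232), 0.12 ± 0.11 on slide 1 (adjusted p = 0.452) and 0.45 ± 0.11 on slide 2 (adjusted p = 0.0228), and the 2 slides' differences were not called unequal (0.33 ± 0.16, adjusted p = 0.171). A second Syk probe, matched to another transcript record, was far dimmer, with a mean of -1.59 over all arrays against 5.34. It gave -0.06 ± 0.10 over both slides, and with the mean over both probes the call was lost (adjusted p = 0.333). Macrophages also express Syk. On slide 2, where the Syk difference lay, the 14 macrophage and monocyte markers had a median of 0.18. Of them 2 were called higher, as were 4.33% of all genes, and none lower. These were Mpeg1 at 0.54 and Ly6c1 at 0.44 (adjusted p = 0.0323 and 0.0437), while Csf1r had -0.05 and Cd68 -0.13 (adjusted p = 0.942 and 0.747). The markers' sum without Ly6c1 overlapped between genotypes, and the sum of the erythroid markers was higher in all deficient arrays. The part of these cells in the result was not tested.

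Lyn, Prkcb and Pik3r1 were lower in deficient cells on slide 1. LYN is the Src-family kinase with both activating and inhibitory roles at the receptor, protein kinase C beta links the receptor to NF-kappaB, and Pik3r1 encodes the regulatory subunit of phosphoinositide 3-kinase. Lyn had 1.28, 1.48, 1.33 and 1.31 in deficient cells of slide 1, against 1.60, 1.49, 1.70 and 1.77 in wild-type cells, and -0.42, -0.43, -0.48 and -0.57 in deficient cells of slide 2, against -0.60, -0.63, -0.70 and -0.76 in wild-type cells. The genotypes did not overlap on either slide but stood in opposite order: deficient cells were below wild type on slide 1 and above it on slide 2. The differences were -0.29 ± 0.08 on slide 1 (adjusted p = 0.0142) and 0.20 ± 0.08 on slide 2 (adjusted p = 0.127), the slides' differences were unequal by 0.49 ± 0.11 (adjusted p = 0.00969), and the mean over both slides was -0.04 ± 0.05.

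Prkcb had 5.96, 5.79, 5.75 and 5.96 in deficient cells of slide 1, against 6.16, 6.06, 6.26 and 6.14 in wild-type cells, and 4.69, 4.66, 4.64 and 4.70 in deficient cells of slide 2, against 4.42, 4.62, 4.36 and 4.66 in wild-type cells. Deficient cells were below all wild-type arrays on slide 1 and overlapped them on slide 2. The difference was -0.29 ± 0.08 on slide 1 (adjusted p = 0.021) and 0.16 ± 0.08 on slide 2 (adjusted p = 0.286), and these were unequal by 0.44 ± 0.12 (adjusted p = 0.0211). The 2 Prkcb probes disagreed, although they lie close together on chromosome 7: the second gave 0.07 ± 0.10 on slide 1, 0.45 ± 0.10 on slide 2 and 0.26 ± 0.07 over both slides (adjusted p over probes 0.0203). Pik3r1 had -0.33 ± 0.10 on slide 1 (adjusted p = 0.0279) and -0.04 ± 0.10 on slide 2. Blk (-0.10 ± 0.09), Btk (0.01 ± 0.06) and Pik3cd (0.01 ± 0.05) passed the test in no comparison; the 95% interval of Btk over both slides was -0.13 to 0.14 and that of Pik3cd -0.10 to 0.12.

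**Figure D2:**
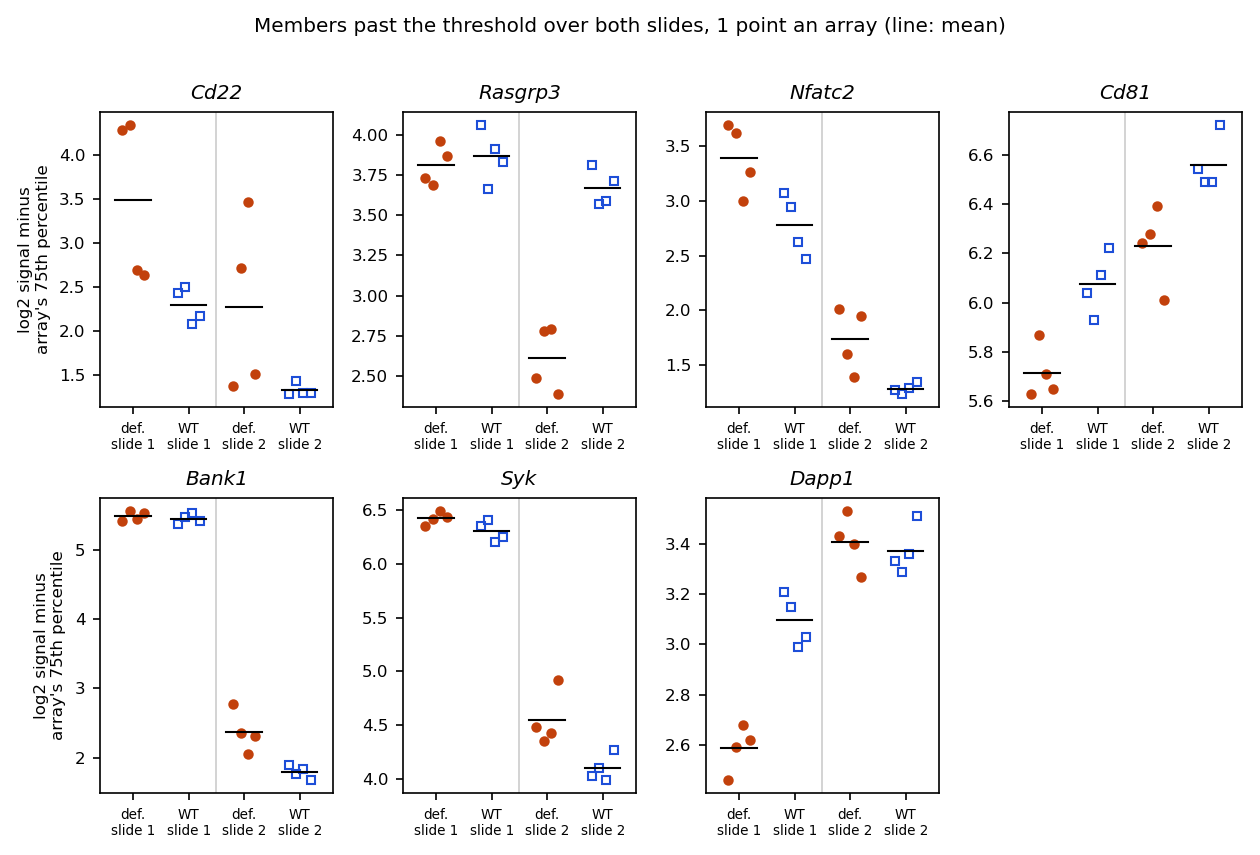
Log2 signal minus the array's 75th percentile (y axis) on each array for the 7 genes called over both slides, with deficient (filled circles) left of wild type (open squares) on each slide and a line at the mean of 4 arrays. Cd81 is lower in every deficient array of its slide, Rasgrp3 on slide 2 only, and the deficient arrays of Cd22 span 2.64 to 4.34 on slide 1, and on slide 2 span 1.38 to 3.47.

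The adaptors and effector enzymes held the smallest adjusted p of the 30 genes. RASGRP3 is the exchange factor that activates Ras when the receptor makes diacylglycerol. Rasgrp3 had 3.73, 3.69, 3.96 and 3.87 in deficient cells of slide 1, against 4.06, 3.66, 3.91 and 3.83 in wild-type cells, and 2.49, 2.78, 2.79 and 2.39 in deficient cells of slide 2, against 3.81, 3.57, 3.59 and 3.71 in wild-type cells. The genotypes overlapped on slide 1, and on slide 2 the deficient arrays lay clear below the wild-type ones. The difference was -1.06 ± 0.11 on slide 2 (2.08-fold higher in wild type, adjusted p = 3.7e-05), -0.05 ± 0.11 on slide 1 (adjusted p = 0.761) and -0.56 ± 0.08 over both slides (adjusted p = 0.000339). The difference between the slides was itself called, at -1.0 ± 0.16 (adjusted p = 0.00214), so the value over both slides averages 2 unequal ones. The single probe lies at chromosome 17, 75928310 to 75928369 of mm9.

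Bank1, a scaffold that links LYN to calcium release, had 5.42, 5.56, 5.45 and 5.54 in deficient cells of slide 1, against 5.37, 5.48, 5.53 and 5.42 in wild-type cells, and 2.78, 2.35, 2.05 and 2.32 in deficient cells of slide 2, against 1.89, 1.76, 1.84 and 1.68 in wild-type cells. The genotypes overlapped on slide 1, and all deficient arrays of slide 2 were above the wild-type ones. The difference was 0.04 ± 0.12 on slide 1, 0.58 ± 0.12 on slide 2 (1.50-fold, adjusted p = 0.00749) and 0.31 ± 0.08 over both (adjusted p = 0.0203). Its second probe gave 0.38 ± 0.09 over both slides (adjusted p over probes 0.00845). The slides' differences were unequal by 0.54 ± 0.17 (adjusted p = 0.0445), a call lost in 13 of the 16 fits without 1 array. Treated as an additive block, slide took the call over both slides away (adjusted p = 0.0749).

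Dapp1, the adaptor also called BAM32 that binds phosphoinositides at the membrane, had 2.46, 2.59, 2.68 and 2.62 in deficient cells of slide 1, against 3.21, 3.15, 2.99 and 3.03 in wild-type cells, and 3.43, 3.53, 3.40 and 3.27 in deficient cells of slide 2, against 3.33, 3.29, 3.36 and 3.51 in wild-type cells. It was lower in every deficient array of slide 1 and overlapped wild type on slide 2. The difference was -0.51 ± 0.08 on slide 1 (1.42-fold higher in wild type, adjusted p = 0.000823), 0.03 ± 0.08 on slide 2 (adjusted p = 0.875) and -0.24 ± 0.06 over both slides (adjusted p = 0.0114), and the slides' differences were unequal by 0.54 ± 0.11 (adjusted p = 0.00853). The second Dapp1 probe gave -0.03 ± 0.12 on slide 1 and -0.07 ± 0.08 over both slides, so the fall rests on 1 of 2 probes. An additive slide block gave an adjusted p of 0.106 over both slides.

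Blnk, the adaptor that SYK phosphorylates, had 7.56, 7.72, 7.77 and 7.69 in deficient cells of slide 1, against 8.08, 8.13, 7.87 and 7.85 in wild-type cells, and 7.30, 7.32, 7.30 and 7.33 in deficient cells of slide 2, against 7.31, 7.20, 7.10 and 7.15 in wild-type cells. All deficient arrays were below wild type on slide 1, and on slide 2 the groups overlapped by the highest wild-type array. The difference was -0.30 ± 0.08 on slide 1 (adjusted p = 0.0147) and 0.12 ± 0.08 on slide 2 (adjusted p = 0.386), unequal by 0.42 ± 0.11 (adjusted p = 0.0215). Under quantile normalization the value on slide 1 was -0.13 (adjusted p = 0.289) and the difference between slides was 0.14 (adjusted p = 0.501). Vav1, the exchange factor for Rac in blood cells, had -0.20 ± 0.07 on slide 1 (adjusted p = 0.0411), and its relatives Vav2 and Vav3 had -0.19 ± 0.11 and -0.29 ± 0.15 there, past the threshold in neither case. Plcg2, the phospholipase that BLNK recruits, had 0.06 ± 0.07 over both slides, and Pik3ap1, the phosphoinositide 3-kinase adaptor BCAP, had 0.32 ± 0.12 (adjusted p = 0.0913). Grb2, an adaptor of the Ras pathway, had 0.03 ± 0.05 with its brighter probe and 0.24 ± 0.07 with the other (adjusted p over probes 0.0265).

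**Figure D3:**
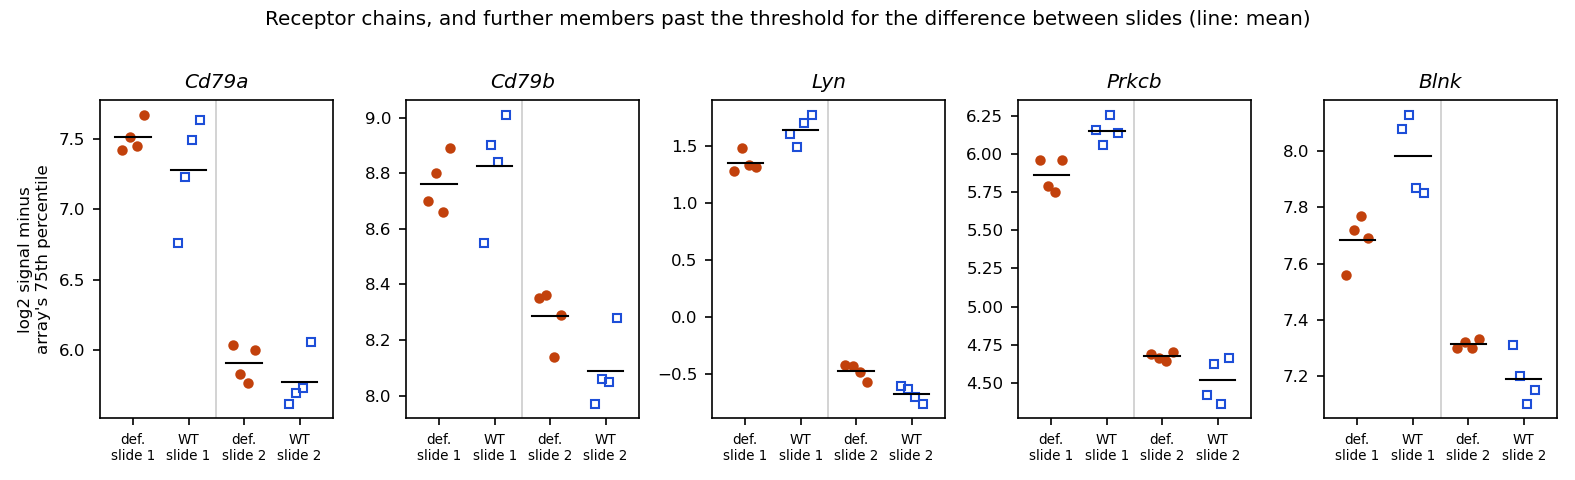
Log2 signal minus the array's 75th percentile (y axis) on each array for Cd79a and Cd79b and for Lyn, Prkcb and Blnk, whose differences were unequal between the slides, with deficient (filled circles) left of wild type (open squares) and a line at the mean of 4 arrays. Lyn, Prkcb and Blnk are lower in deficient cells on slide 1, by 0.29, 0.29 and 0.30, and their means are higher in deficient cells on slide 2.

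Among the inhibitors Cd22 was higher in deficient cells with the largest standard error of the 30 genes. CD22 is a lectin of the B cell surface that recruits SHP-1 and restrains calcium signalling. Cd22 had 4.28, 4.34, 2.70 and 2.64 on deficient arrays 9, 11, 10 and 12 of slide 1, against 2.43, 2.50, 2.08 and 2.17 in wild-type cells, and 1.38, 2.72, 3.47 and 1.51 on deficient arrays 1 to 4 of slide 2, against 1.29, 1.43, 1.30 and 1.30 in wild-type cells. On either slide a pair of deficient arrays was far above all wild-type arrays and the other pair was close to them; the groups stood apart on slide 1 and overlapped on slide 2. The mean ± SD was 3.49 ± 0.95 in deficient and 2.30 ± 0.20 in wild-type cells of slide 1, and 2.27 ± 1.00 in deficient and 1.33 ± 0.07 in wild-type cells of slide 2 (n = 4 each). The difference over both slides was 1.07 ± 0.33 (2.10-fold, adjusted p = 0.0369), and neither slide alone passed (1.19 ± 0.46 with adjusted p = 0.073 on slide 1, 0.94 ± 0.46 with adjusted p = 0.248 on slide 2). Leaving out 1 array lost the call in 11 of 16 cases, with adjusted p up to 0.0713; the arrays whose removal kept it were, on slide 1, deficient 10 and 12 and wild-type 5, and on slide 2, deficient 1 and 4. The single probe lies at chromosome 7, 31651249 to 31651308 of mm9.

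The other inhibitors passed the test in no comparison. Ptpn6, which encodes the phosphatase SHP-1, had -0.25 ± 0.10 on slide 1 (adjusted p = 0.07) and 0.15 ± 0.10 on slide 2 (adjusted p = 0.385). Inpp5d, which encodes the lipid phosphatase SHIP-1, had -0.15 ± 0.08 and 0.08 ± 0.08, and Cd72, an inhibitory lectin, had -0.19 ± 0.17 and 0.10 ± 0.17 on the same slides. Fcgr2b, the inhibitory Fc receptor of B cells, is not among the 30 genes but acts through SHIP-1; it had 1.33 ± 0.07 over both slides (adjusted p = 2.24e-08), from -0.03 ± 0.10 on slide 1 and 2.69 ± 0.10 on slide 2. Its means on slide 2 were 2.30 ± 0.09 in deficient and -0.40 ± 0.15 in wild-type cells (SD, n = 4 each), a separation wider than that of any of the 30 genes on that slide.

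Downstream of the receptor Nfatc2 was higher in deficient cells. NFATC2 is a transcription factor that calcium signalling moves to the nucleus, in B cells and in T cells. Nfatc2 had 3.69, 3.62, 3.00 and 3.26 in deficient cells of slide 1, against 3.07, 2.94, 2.62 and 2.47 in wild-type cells, and 2.01, 1.60, 1.39 and 1.95 in deficient cells of slide 2, against 1.27, 1.24, 1.29 and 1.35 in wild-type cells. Deficient array 10 reached down into the wild-type range on slide 1, and all deficient arrays of slide 2 were above wild type. The difference was 0.53 ± 0.12 over both slides (1.45-fold, adjusted p = 0.0097), 0.62 ± 0.18 on slide 1 (adjusted p = 0.0215) and 0.45 ± 0.18 on slide 2 (adjusted p = 0.141). The other Nfatc2 probe, far dimmer with a mean of -3.71 over all arrays against 2.30, gave -0.17 ± 0.15. With the mean over both probes the call was lost (adjusted p = 0.29). The summed level of T cell markers overlapped between genotypes on slide 1 and was higher in all deficient arrays of slide 2. On slide 2, 3 of the 14 T cell markers were called higher (Lck, Cd3d and Cd3g), where 4.33% of all genes were. The 2 called lower, where 4.27% of all genes were, were Tcf7 at -1.06 and Il7r at -0.96 (adjusted p = 0.00422 and 0.0337). Lck, the brightest of the 14, made up much of the sum on slide 2. It had means of 3.92 in deficient and 3.31 in wild-type cells there, while Cd3e had a difference of -0.06. Cd3g had 1.77 there, between readings well above background on 0 of 4 arrays of either genotype. The part of T cell RNA in the result was not tested.

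The 2 probes of Nfatc1, which are matched to different transcript records, disagreed. The brighter gave -0.05 ± 0.07 over both slides (adjusted p = 0.672), and the other gave 0.50 ± 0.09 (adjusted p over probes 0.00266), with 0.41 ± 0.13 on slide 1 and 0.60 ± 0.13 on slide 2. With the mean over its probes, the value of Nfatc1 over both slides was 0.2253 (adjusted p = 0.0372). The second probe's means were 2.34 in deficient and 1.93 in wild-type cells of slide 1, and 1.09 in deficient and 0.49 in wild-type cells of slide 2. Malt1 and Bcl10, which together relay protein kinase C beta to NF-kappaB, had -0.13 ± 0.08 and -0.09 ± 0.09 over both slides, and Malt1 passed the test on slide 1 (-0.35 ± 0.12, adjusted p = 0.0411).

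Read slide by slide, the median of the 30 genes was below 0 on slide 1 and above 0 on slide 2, as was that of all genes, and its size moved with the scaling. On slide 1, 1 gene was called higher (Nfatc2), where 9.19% of all genes were, and 8 were called lower (Cd81, Lyn, Prkcb, Pik3r1, Blnk, Vav1, Dapp1 and Malt1), 26.7% of the 30 where 15.8% of all genes were. Their median difference was -0.14, against -0.08 over all genes, and 22 of 30 (73.3%) had a difference below 0, as did 59% of all genes. On slide 2, 2 were called higher (Syk and Bank1) and 2 lower (Cd81 and Rasgrp3), 6.7% of the 30 each way, where 4.33% of all genes were called higher and 4.27% lower. The median there was 0.12, against 0.02 over all genes, and 23 of 30 (76.7%) were above 0, as were 52.7% of all genes. With quantile normalization the medians of the 30 were -0.05 on slide 1 and 0.03 on slide 2, against -0.02 and -0.01 over all genes, and with the authors' deposited values they were -0.03 and 0.02, against -0.02 and -0.01.

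The split of calls on slide 1 moved with the scaling: 2090 genes were called higher and 3587 lower with the 75th percentile, 2368 and 2739 with quantile normalization, and 2779 and 3017 with the authors' deposited values. Of the 30 genes, 4 were called lower on slide 1 with quantile normalization and 3 with median scaling or the authors' values. On slide 2 the split over all genes was 984 higher and 970 lower, against 1291 and 676 with median scaling. Over both slides it was 1737 higher and 2261 lower, against 1893 and 1354 with median scaling, which left 4 higher and 2 lower among the 30.

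Counted by non-overlap of the arrays, all deficient arrays lay above all wild-type arrays for 1 gene on slide 1 (Cd22), as for 7.37% of all genes, and below them for 8 (Cd81, Lyn, Blk, Prkcb, Pik3r1, Blnk, Vav1 and Dapp1), as for 15.1% of all genes. On slide 2 they lay above for 6 (Syk, Lyn, Bank1, Grb2, Ptpn6 and Nfatc2), as for 13.9% of all genes, and below for 2 (Cd81 and Rasgrp3), as for 9.89%. Cd81 was below on both slides, and Lyn was below on slide 1 and above on slide 2.

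The difference between slides, slide 2 minus slide 1, was called for 6 of the 30 genes. Lyn, Prkcb, Blnk, Dapp1 and Bank1 had a more positive genotype difference on slide 2, 16.7% of the 30 where 10.5% of all genes did, and Rasgrp3 had a more negative one, as 5.4% of all genes did. The median of this quantity was 0.23 over the 30 genes and 0.09 over all genes, and 26 of 30 (86.7%) were above 0, as were 57.5% of all genes. With quantile normalization this median was 0.07 over the 30 and with the authors' deposited values 0.08, against 0.01 over all genes in both cases. All 7 kinases and 9 of the 10 adaptors and effectors were above 0, with Rasgrp3 as the exception. With quantile normalization or the authors' values, 3 of the 6 calls were kept, and the split over all genes was 1036 higher and 1147 lower with quantile normalization, against 2383 and 1227 with the 75th percentile. The slides were scanned apart. Wild-type numbers 2 and 5 occur on both, and the labels do not say whether they stand for the same mice, so mice and slide cannot be told apart.

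**Figure D4:**
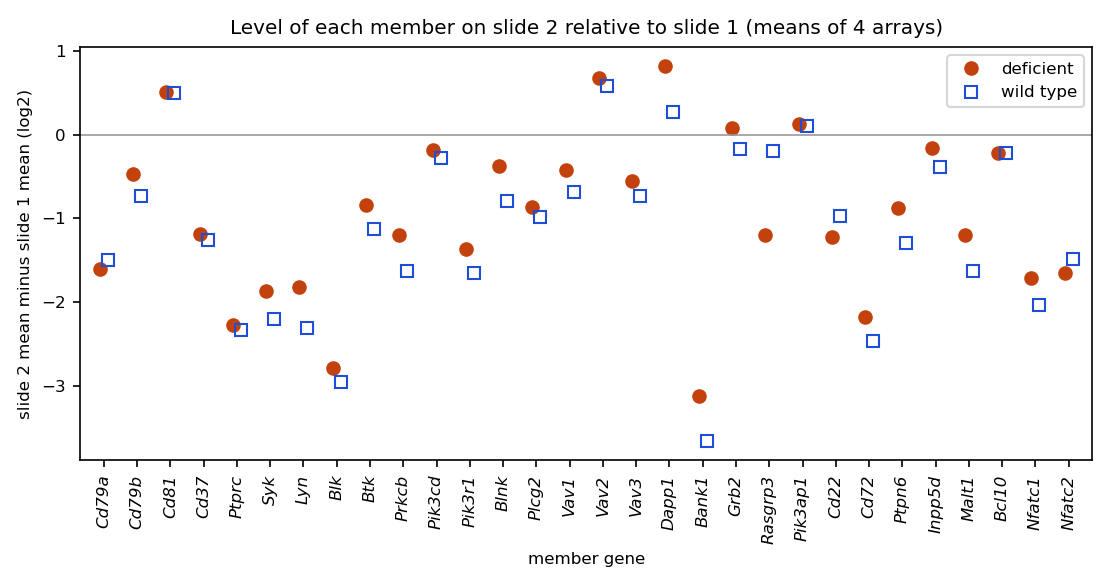
Mean level on slide 2 minus mean level on slide 1 (y axis, log2, 4 arrays in each mean) for each of the 30 genes (x axis, by role), in deficient (filled circles) and wild-type cells (open squares). Most genes lie below 0 in both genotypes, down to -3.12 and -3.66 for Bank1, and Rasgrp3 is the gene whose genotypes lie farthest apart.

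The levels themselves also differed between slides, as a description with no test. Relative to the array's 75th percentile, 25 of the 30 genes were lower on slide 2 in deficient cells and 26 in wild-type cells, with medians of -1.03 and -1.06, while the medians over all genes were 0.40 and 0.35. The shift of Bank1 was -3.12 in deficient and -3.66 in wild-type cells on the log2 scale, that of Blk was -2.78 and -2.95, and that of Ptprc was -2.27 and -2.33. Cd81 (0.51 in deficient and 0.49 in wild-type cells), Vav2 (0.68 and 0.58), Dapp1 (0.82 and 0.27) and Pik3ap1 (0.12 and 0.10) were higher on slide 2 in both genotypes. The shift of Rasgrp3 was -1.20 in deficient and -0.20 in wild-type cells.

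A wider set of 66 measured genes of the receptor pathway, none of them among the 30, had 5 called higher (7.6%, where 7.64% of all genes were) and 10 called lower (15.2%, where 9.95% were) over both slides, with a median difference of -0.02, against -0.03 over all genes. Higher were Fcgr2b (above), Cblb, a ubiquitin ligase that restrains receptor signalling (0.58 ± 0.08, adjusted p = 0.0002), Pik3cb and Pik3r2, a catalytic and a regulatory subunit of phosphoinositide 3-kinase (0.42 ± 0.10 and 0.39 ± 0.08), and the kinase Akt1 (0.24 ± 0.07). The lower ones with the largest differences were Pik3cg, another catalytic subunit (-0.61 ± 0.13), the calcium release channel gene Itpr2 (-0.52 ± 0.08), the lipid phosphatase gene Inppl1 (-0.40 ± 0.12), the complement receptor gene Cr2 (-0.39 ± 0.10), the Src-family kinase Fyn (-0.37 ± 0.10) and the calcineurin subunit Ppp3r1 (-0.30 ± 0.06). On slide 1 the set held 4 higher and 13 lower genes (6.1% and 19.7%, where 9.19% and 15.8% of all genes were; median -0.09, against -0.08). On slide 2 it held 3 higher and 2 lower ones (4.5% and 3.0%, where 4.33% and 4.27% of all genes were, with a median of 0.03, against 0.02). The difference was called more positive on slide 2 than on slide 1 for 9 genes (13.6%, where 10.5% of all genes were). It was called more negative for 2 (3.0%, where 5.4% were). Besides Fcgr2b, the named genes with such a call were Cblb (0.23 on slide 1 and 0.93 on slide 2), Pik3cg (-0.12 and -1.10) and Ppp3r1 (-0.53 and -0.06).

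B cell subsets differ in their receptor signalling genes, so their markers were read beside these results. Of all genes, 7.64% were called higher and 9.95% lower over both slides, 9.19% and 15.8% on slide 1, and 4.33% and 4.27% on slide 2. A more negative difference on slide 2 than on slide 1 was called for 5.4%, and a more positive one for 10.5%. Of the marginal zone markers, 4 of 7 measured were called lower in deficient cells and none higher over both slides. On slide 1, 2 were called lower and none higher. On slide 2, 3 were called lower and 1 higher (Notch2, 0.32, adjusted p = 0.0456). The summed level of the 7 was 210 to 296 in deficient and 304 to 367 in wild-type cells of slide 1, and 22.8 to 23.6 in deficient and 24.1 to 26.5 in wild-type cells of slide 2. Of the transitional and immature markers 5 of 8 were called lower and none higher over both slides, with 2 lower on slide 1 and 4 lower on slide 2. They had sums of 90.7 to 132 in deficient and 117 to 183 in wild-type cells of slide 1, and of 35.1 to 43.2 in deficient and 54.7 to 66.1 in wild-type cells of slide 2. Of the B-1 markers 3 of 7 were called higher and none lower over both slides, but the slides differed: slide 1 had 3 higher and 1 lower, slide 2 had none either way, and 3 were called more negative on slide 2 than on slide 1. Among these Spn had 0.97 on slide 1 and -0.53 on slide 2, and Bhlhe41 1.52 and -0.50. The B-1 list had sums of 23.0 to 38.3 in deficient and 11.9 to 17.1 in wild-type cells of slide 1, and of 93.3 to 101 in deficient and 75.7 to 86.6 in wild-type cells of slide 2. Zbtb32 made up much of the sums on slide 2, with means of 6.20 in deficient and 5.88 in wild-type cells, a difference not called there (0.32, adjusted p = 0.445). Follicular markers (8 measured) had 1 called higher (Cxcr5) and 1 lower (Klf2) over both slides, 1 lower on slide 1, and 3 higher and 1 lower on slide 2. Their sums were 248 to 345 in deficient and 347 to 415 in wild-type cells of slide 1, and 98.7 to 133 in deficient and 79.6 to 93.9 in wild-type cells of slide 2, so the genotypes stood in opposite order on the slides. Plasma cell markers (7 measured) were also opposite, the other way round: 4 were called higher and 1 lower on slide 1, none higher and 5 lower on slide 2, and 5 were called more negative on slide 2 than on slide 1. Their sums were 243 to 484 in deficient and 149 to 242 in wild-type cells of slide 1, and 155 to 205 in deficient and 211 to 285 in wild-type cells of slide 2. The part of these subsets in the differences of the 30 genes, and in those that were unequal between slides, was not tested.

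Promoter sequence was read for the genes of the set, from RefSeq on GRCm38.p6, over the 250 bases before each gene start; 25 of the 30 genes matched, with 35 starts, and Cd79b, Lyn, Blk, Malt1 and Nfatc1 did not. 9 motifs were searched on both strands, of which 4 are known from B cell promoters. The octamer ATGCAAAT, bound by Oct factors, occurred before 2 of the 35 starts (Prkcb and Blnk) and before 1.6% of all 32851 starts in the table. TCCCNNGGGA, the EBF motif, occurred before 2 (Vav3 and Cd22) and 0.779% of all, and GAGGAAGT, of the PU.1 type, before 6 (Cd37, Vav1, Grb2, Rasgrp3, Cd72 and Inpp5d) and 2.44% of all. CAGGTG, the E-box of E2A, occurred before 14 of the 35 starts and 17.2% of all. The other motifs searched were CCGGAAGT of the Ets type (0 of the 35 starts, 2.88% of all), GGGANNNNCC of the NF-kappaB type (7, and 17.6%), GGAAANNNNTGA of the NFAT type (0, and 1.23%), GGGCGG of the SP1 type (15, and 32.7%) and GAAANNGAAA of the IRF type (0, and 2.98%). A match is a description of the letters only. Shown here, with matches to the 4 motifs in capitals, are the promoters of Rasgrp3 and Cd81, the lower genes with the smallest adjusted p, of Cd22, the gene with the largest difference, and of Cd79a, the receptor chain, each 5′ to 3′ on the gene's strand.
Rasgrp3: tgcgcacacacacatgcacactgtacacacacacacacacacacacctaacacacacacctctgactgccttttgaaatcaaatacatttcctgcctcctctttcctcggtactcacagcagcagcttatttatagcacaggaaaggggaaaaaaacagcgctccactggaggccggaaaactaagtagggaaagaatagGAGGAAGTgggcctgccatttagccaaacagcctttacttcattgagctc
Cd81: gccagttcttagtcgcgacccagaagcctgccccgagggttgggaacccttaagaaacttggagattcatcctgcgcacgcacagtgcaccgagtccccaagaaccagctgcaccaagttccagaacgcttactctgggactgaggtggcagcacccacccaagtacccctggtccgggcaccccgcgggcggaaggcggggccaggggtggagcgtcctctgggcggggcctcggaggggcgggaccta
Cd22: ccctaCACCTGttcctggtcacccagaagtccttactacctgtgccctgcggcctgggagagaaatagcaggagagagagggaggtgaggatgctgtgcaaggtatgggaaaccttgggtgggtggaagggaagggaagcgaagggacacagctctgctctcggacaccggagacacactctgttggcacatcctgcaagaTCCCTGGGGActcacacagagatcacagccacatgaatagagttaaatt
Cd79a: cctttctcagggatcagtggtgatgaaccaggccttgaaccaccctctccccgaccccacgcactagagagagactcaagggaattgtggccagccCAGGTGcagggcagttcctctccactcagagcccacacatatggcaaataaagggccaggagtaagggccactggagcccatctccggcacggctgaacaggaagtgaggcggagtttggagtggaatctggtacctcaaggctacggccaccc
These lie at chr17:75435655-75435904 (plus strand), chr7:143052500-143052749 (plus), chr7:30879029-30879278 (minus) and chr7:24897247-24897496 (plus). Rasgrp3 has 2 listed starts, and the window shown was chosen as the one with more matches to the 4 motifs, so its holding a match follows from that choice. That window holds GAGGAAGT beginning 50 bases before the start. The Cd22 window holds the EBF match beginning 49 bases and an E-box 245 bases before the start, Cd79a holds an E-box 154 bases before it, and Cd81 holds none of the 4 motifs in this window; no matches overlapped in these windows. Of the 6 genes with GAGGAAGT, Rasgrp3 was the only one called over both slides, where 7.64% of all genes were called higher and 9.95% lower. A link between motif and call was not tested.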

How the data were processed

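RNA of B220-selected spleen cells was hybridised to single-colour Agilent arrays. Per the file headers, the authors' scanner files came from Feature Extraction 10.7.3.1 with probe positions on mm9 and give a processed signal intensity for each spot; the deposited value table holds log2 values whose normalization is not stated (column medians 5.58 to 5.60 on slide 1 and 6.49 to 6.50 on slide 2), and the submitters' processing notes name limma for slide 2. Signals were taken to log2 and each array's 75th percentile over non-control spots was subtracted, outlier spots were left out, and spots were averaged per probe. A probe had to be well above background on 4 or more of the 16 arrays, and the brightest measured probe stood for its gene. Differences came from limma 3.58.1 (R 4.3.3) with 1 mean for each of the 4 groups, moderated and Benjamini-Hochberg adjusted over 22733 genes; the fit was tested on simulated data. The members and lists were chosen with earlier results of these data known. All 30 members are reported; values by array are given for those past the threshold over both slides or between slides and for Cd79a and Cd79b, and further pathway genes by the largest called differences, with Fcgr2b; 1 further gene of that list is not reported here. Alternatives covered background, scaling, filters, probe choice, array weights, slide handling, the authors' values and single arrays left out.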

Additional observations from a re-analysis of the deposited data

Results flagged for a closer look

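The genotype difference was unequal between slides for 6 genes (limma, slide 2 difference minus slide 1 difference). It was 0.49 for Lyn (adjusted p = 0.00969), 0.44 for Prkcb (0.0211), 0.42 for Blnk (0.0215), 0.54 for Dapp1 (0.00853), 0.54 for Bank1 (0.0445) and -1.0 for Rasgrp3 (0.00214). Lyn and Rasgrp3 kept this call under all alternatives run.

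In 5 of 120 groups of 4 arrays a single array stood apart from the other 3 by Dixon's criterion, which chance gives in about 1 group in 20. Cd37 had 5.59 on wild-type array 5 of slide 2, against 5.16 to 5.19 on the others. Ptprc had 5.88 on deficient array 12 of slide 1, against 5.60 on the others. Vav2 had 0.13 on deficient array 4 of slide 2, against -0.10 to -0.07. Pik3r1 had 1.36 on wild-type array 2 of slide 1, against 1.17 to 1.20, and Cd22 had 1.43 on wild-type array 2 of slide 2, against 1.29 to 1.30.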

How the results depend on the processing

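Of the 7 calls over both slides, Rasgrp3 and Cd81 were kept under all 26 alternatives. Slide as a random block left 4 calls (Syk, Dapp1 and Bank1 were lost), and leaving out each array gave 6 to 8. On slide 1 the 9 calls became 1 with that slide fitted alone, 4 with median scaling, 5 with quantile normalization, 5 with array weights, 4 with the authors' values, and 5 to 9 without 1 array, the lowest without deficient array 9; Vav1 and Malt1 were each lost in 10 of these 16 fits, Nfatc2 in 4, Pik3r1 in 3 and Prkcb in 2. On slide 2 the 4 calls became 2 with that slide fitted alone, 13 with array weights, and 2 to 4 without 1 array, the lowest without wild-type array 1, 2 or 3; Cd81 was lost in 12 and Syk in 3. The replicate block on slide 2 left 0 (limma, 9 members had an unadjusted p under 0.05), with Rasgrp3 at -0.9683 (adjusted p = 0.0531). Deficient and wild-type arrays of slide 2 share the numbers 1, 2 and 3, and the labels do not say whether these pair them. Deviations of like-numbered arrays correlated at 0.0102, 0.122 and 0.0693. Those of unlike-numbered arrays ran from -0.186 to 0.169, a range that holds the like-numbered values, so the correlations cannot decide it. The 6 calls for the difference between slides became 3 with quantile normalization and 3 with the authors' values, and 5 to 7 without 1 array. Nfatc1 over both slides reversed to 0.2253 (adjusted p = 0.0372) with the mean over its probes, which disagree. Apart from the probe mean, the cause of these changes was not tested. No probe of the 30 genes was saturated, and all chosen probes were well above background on 16 arrays.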

Other observations

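The uneven values of Cd22 among the deficient arrays recurred at probes near it and at probes elsewhere, an observation made after the values of Cd22 were seen. Among 6759 measured probes whose SD over the 8 deficient arrays, each taken as its deviation from the mean of its slide, was above 0.4, the 20 with deviations most like those of Cd22 (by Pearson's correlation, as a description) included 8 on chromosome 7, where 7.23% of the compared probes lie. The closest match of the 20 was a probe without a gene name on chromosome 7, far from Cd22. Those not on chromosome 7 were spread over other chromosomes, among them probes of Xdh, Spaca1 and Gcm1. Of the 8 on chromosome 7, 7 lie between 28692411 and 34894673 of mm9, around the Cd22 probe. Of the compared probes 1.12% lie at 25 to 40 Mb of chromosome 7, a window set after the values of Cd22 were seen. The 7 probes belong to 1700049G17Rik, Lgals4 (both of its probes, which overlap each other), 1110035H17Rik, Sbsn, Hpn and Wtip. Sbsn, the nearest, had -0.70, -0.24, -1.96 and -1.48 on deficient arrays 9, 11, 10 and 12 of slide 1, against -1.74, -1.77, -2.08 and -2.0 in wild-type cells, and -2.39, -1.31, -1.13 and -2.04 on deficient arrays 1 to 4 of slide 2, against -2.37, -2.28, -2.07 and -2.41 in wild-type cells. One Lgals4 probe had 1.09, 1.33, -0.13 and 0.13 on the same deficient arrays of slide 1, against 0.47, 0.34, -0.09 and -0.03 in wild-type cells, and -0.62, -0.18, 0.47 and -0.63 on those of slide 2, against -0.76, -0.61, -0.65 and -0.79 in wild-type cells. Since the probes were chosen for likeness to Cd22 among the deficient arrays, their order there is fixed by that choice, and the deficient and wild-type ranges overlapped in others. Wtip had -1.79, -0.86, -0.71 and -1.91 on deficient arrays 1 to 4 of slide 2, against -0.89, -0.73, -0.85 and -0.75 in wild-type cells, so that 2 deficient arrays lay below all of these. 1110035H17Rik had -0.91, -0.91, -1.65 and -1.28 on deficient arrays 9, 11, 10 and 12 of slide 1, against -1.37, -1.63, -0.81 and -1.17 in wild-type cells. The reason was not tested.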
